A study of Mus musculus with 15 samples.

Results

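Proneural factors are the transcription factors that push a dividing neural progenitor to leave the cell cycle and become a neuron. The levels of 9 such genes and their close regulators were followed in mouse optic tissue grown in culture: Neurog1, Neurog2, Neurod2, Neurod4, Olig2, Bhlhe22, Hes6, Insm1 and Gadd45g. They were listed by gene symbol, at a time when earlier results of these data were known. All 9 were found among 23244 entries of the expression table, each as a single entry. The tissue came from SFEBq, a method that lets single mouse ES cells clump together in wells to which they do not stick. An optic epithelium then forms around the outside of the clump. All samples carried EB5 Rx::GFP+/-, a single reporter line in which GFP marks cells that express the eye field gene rx.

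The 5 groups held 3 biological replicates each, or 15 libraries in all. Day 10 Rx::GFP+ tissue was the starting material, cut from the aggregates with forceps where it was GFP positive. Day 12 +Fgf and Day 15 +Fgf tissue was the same kind of explant kept with 5 ng/ml human bFgf and 10% FBS, labelled neural retina (NR). Day 12 +Wnt and Day 15 +Wnt tissue was kept with CHIR99201, which blocks GSK3 and so turns on Wnt signalling, at a dose of 3 μM over the first 24 h that was then lowered to 1 μM, labelled retinal pigment epithelium (RPE). FBS was given in the +Fgf medium, and the effects of bFgf and FBS cannot be told apart. No library came from explants kept without either stimulation, so changes between days mix time in culture with stimulation. RNA-Seq counted between 12556998 and 16175450 reads on genes per library, so that 1 read was worth 0.0620 to 0.0764 CPM, the authors' normalized read count per library. Each library was made from RNA of whole explant tissue, so more cells of a type and more RNA per cell cannot be told apart.

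Most proneural factors share a basic helix-loop-helix (bHLH) domain, pair with E proteins and bind the E-box, a short DNA motif with the letters CANNTG. A cell that gains a proneural factor also makes Notch ligands, and Notch signalling in its neighbours raises Hes repressors that keep proneural genes low there. In the developing retina Neurog2, Neurod4 and Olig2 are known from progenitors and newborn neurons. In the developing cortex Neurog1, Neurog2 and Neurod2 are known as steps in the making of excitatory neurons.

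The 250 bases before the start of 4 of these genes are shown because the genes fall into 2 patterns below, Neurod4 and Hes6 high in Day 15 +Fgf and Neurod2 and Gadd45g high in Day 15 +Wnt tissue. The sequences are from RefSeq (GRCm38.p6), are given 5′ to 3′ on the strand of the gene, and carry each E-box CANNTG in capitals. The motif reads as CANNTG on both strands, so each match counts once.
Neurod4, chr10:130280255-130280504, minus strand: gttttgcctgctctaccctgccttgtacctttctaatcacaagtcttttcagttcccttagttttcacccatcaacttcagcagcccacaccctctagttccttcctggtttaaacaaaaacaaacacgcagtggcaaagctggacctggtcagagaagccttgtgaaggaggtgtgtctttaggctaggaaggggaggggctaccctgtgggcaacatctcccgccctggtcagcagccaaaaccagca
Hes6, chr1:91414039-91414288, minus strand: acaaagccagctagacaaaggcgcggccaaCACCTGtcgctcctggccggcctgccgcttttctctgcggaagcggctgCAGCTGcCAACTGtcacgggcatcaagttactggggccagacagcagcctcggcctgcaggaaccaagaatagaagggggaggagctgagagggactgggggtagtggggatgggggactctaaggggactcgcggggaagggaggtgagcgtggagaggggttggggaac
Neurod2, chr11:98329646-98329895, minus strand: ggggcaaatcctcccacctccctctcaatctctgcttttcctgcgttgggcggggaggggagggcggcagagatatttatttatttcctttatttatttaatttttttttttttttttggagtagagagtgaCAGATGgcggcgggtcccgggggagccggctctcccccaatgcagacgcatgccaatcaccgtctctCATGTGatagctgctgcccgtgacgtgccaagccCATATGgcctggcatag
Gadd45g, chr13:51846425-51846674, plus strand: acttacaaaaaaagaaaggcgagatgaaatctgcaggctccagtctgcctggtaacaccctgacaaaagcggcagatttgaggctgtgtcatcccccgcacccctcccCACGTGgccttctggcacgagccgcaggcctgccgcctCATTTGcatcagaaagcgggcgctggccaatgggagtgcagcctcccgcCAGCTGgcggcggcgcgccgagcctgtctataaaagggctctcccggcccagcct
RefSeq gave windows for 7 of the 9 genes. The window of Neurod4 held no E-box, and those of Hes6, Neurod2 and Gadd45g held 3 each. The windows of Neurog1, Neurog2 and Olig2 held none. Of 32851 mouse windows of this length, 66.2% held at least 1 E-box and 12.2% held 3 or more. A second start of Hes6 had 1 match and a second start of Neurod4 had none. These matches describe the letters of the windows alone, since no binding was measured.

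The genes followed 3 courses. Neurog2, Neurod4, Olig2, Hes6 and Insm1 had their highest levels in Day 15 +Fgf tissue. Neurod2, Bhlhe22 and Gadd45g had theirs in Day 15 +Wnt tissue. Neurog1 was highest in Day 12 +Wnt tissue and came back down by Day 15. Differences below are on the scale log2(CPM + 0.25) and come from limma, a linear model fitted to all 13845 entries with at least 1 CPM in at least 3 libraries, with Benjamini-Hochberg adjusted p-values and a threshold of 0.05. All 9 genes passed this filter. Values of single libraries are given for replicates 1, 2 and 3 in that order, and gene positions are on GRCm38 (mm10).

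**Figure D1:**
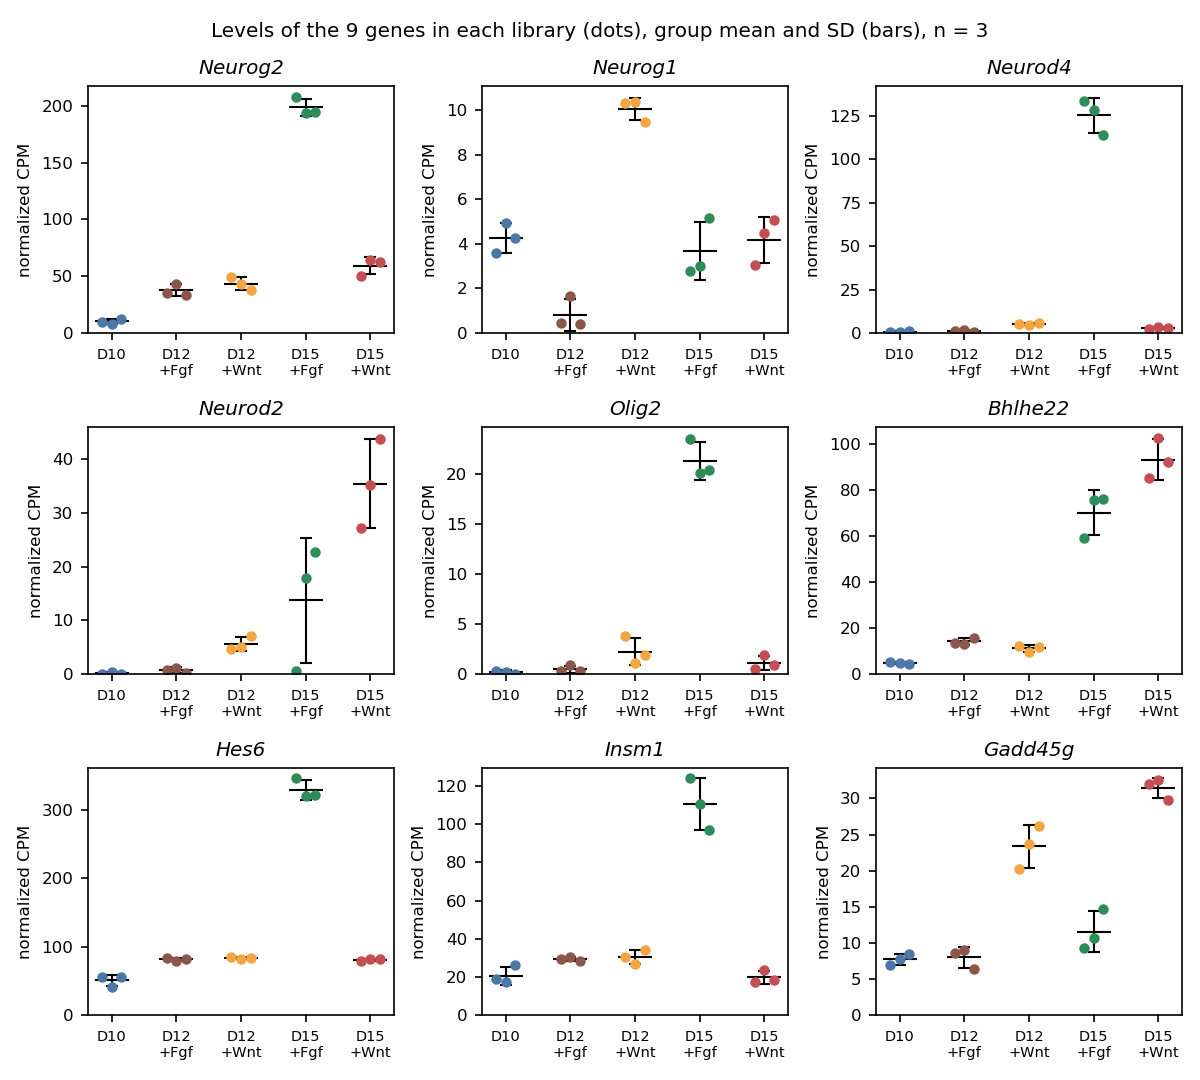
Level of each of the 9 genes in every library (y axis, normalized CPM on a linear scale from 0), by group on the x axis, with the group mean and SD as bars (n = 3). The Day 15 +Fgf libraries stand far above the rest for Neurog2, Neurod4, Olig2, Hes6 and Insm1, and 1 of 3 Day 15 +Fgf libraries lies near 0 for Neurod2.

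Neurog2 (NM_009718, chr3:127633135-127635631, plus strand, 2 exons) is a neurogenin of dividing progenitors. It stood at 9.95, 8.29 and 12.3 CPM at Day 10, at 35.5, 43.5 and 33.7 CPM in Day 12 +Fgf tissue, and at 49.2, 42.7 and 37.7 CPM in Day 12 +Wnt tissue. By Day 15 the level reached 208, 194 and 194 CPM with Fgf stimulation and 50.6, 64.4 and 62.8 CPM with Wnt stimulation. All libraries of Day 12 lay above all of Day 10, the 2 Day 12 groups overlapped, and every Day 15 +Fgf library was above every Day 15 +Wnt library. By limma, Neurog2 rose from Day 10 to Day 12 by 1.87 ± 0.13 (SE) log2 units with Fgf (adjusted p = 9.4e-09) and by 2.07 ± 0.13 with Wnt (adjusted p = 2.5e-09). The Day 12 groups differed by -0.20 ± 0.13, +Fgf minus +Wnt (adjusted p = 0.22). From Day 12 to Day 15 the gene rose by another 2.40 ± 0.13 in +Fgf tissue (adjusted p = 3.3e-10) and by 0.45 ± 0.13 in +Wnt tissue (adjusted p = 0.0059). The mean at Day 15 was 199 ± 7.7 CPM (SD, n = 3) in +Fgf and 59.3 ± 7.54 CPM in +Wnt tissue, a ratio of 3.35 (log2 difference 1.75 ± 0.13, adjusted p = 4.7e-09).

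Neurog1 (NM_010896, chr13:56250478-56252163, minus strand, 1 exon), a second neurogenin, moved in opposite directions in the 2 media. Its level was 3.61, 4.95 and 4.28 CPM at Day 10, fell to 0.444, 1.66 and 0.383 CPM in Day 12 +Fgf tissue and rose to 10.3, 10.4 and 9.47 CPM in Day 12 +Wnt tissue. By Day 15 its level was 2.80, 3.02 and 5.16 CPM in +Fgf and 3.04, 4.47 and 5.05 CPM in +Wnt tissue. The 3 groups at Day 12 and Day 10 did not overlap, while both Day 15 groups overlapped with Day 10. The Day 12 +Fgf values rest on 6 to 26 reads. Neurog1 fell by 2.25 ± 0.33 log2 units from Day 10 to Day 12 +Fgf (limma, adjusted p = 2.8e-05) and rose by 1.19 ± 0.33 to Day 12 +Wnt (adjusted p = 0.0053). The 2 Day 12 groups differed by -3.45 ± 0.33, +Fgf minus +Wnt (adjusted p = 2.05e-07). By Day 15 the gene had risen again by 2.00 ± 0.33 in +Fgf tissue (adjusted p = 7.4e-05) and had fallen by 1.24 ± 0.33 in +Wnt tissue (adjusted p = 0.0033), and the Day 15 groups differed by -0.20 ± 0.33 (adjusted p = 0.60). With the RNA integrity number that the study lists for each library as a covariate, the Day 12 +Wnt rise was 0.75 and was no longer called (adjusted p = 0.14).

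Neurod4 (NM_007501, chr10:130268152-130280240, minus strand, 2 exons) belongs to the NeuroD family, which acts after the neurogenins in differentiating neurons. It was at 0.613, 0.468 and 1.15 CPM at Day 10, 1.01, 1.98 and 0.767 CPM in Day 12 +Fgf and 4.97, 4.59 and 5.69 CPM in Day 12 +Wnt tissue. By Day 15 it stood at 134, 128 and 114 CPM in +Fgf and at 2.48, 3.58 and 2.81 CPM in +Wnt tissue. The Day 15 +Fgf libraries were thus more than an order of magnitude above every other library, and the next highest group was Day 12 +Wnt. Neurod4 rose from Day 12 to Day 15 by 6.46 ± 0.26 log2 units in +Fgf tissue (limma, adjusted p = 1.5e-11), and mean levels differed by a ratio of 100.2. In +Wnt tissue it rose by 2.48 ± 0.26 from Day 10 to Day 12 (adjusted p = 6.2e-07) and then fell by 0.74 ± 0.26 (adjusted p = 0.0185). This fall was not called without Day 12 +Wnt replicate 3 (-0.66, adjusted p = 0.064) or without Day 15 +Wnt replicate 1 (-0.64, adjusted p = 0.070). The mean at Day 15 was 125 ± 10.1 CPM in +Fgf and 2.96 ± 0.564 CPM in +Wnt tissue, a ratio of 42.4 (log2 difference 5.30 ± 0.26, adjusted p = 2.2e-11), against -1.90 ± 0.26 at Day 12 (adjusted p = 1.2e-05). The difference between Day 12 +Fgf and Day 10 was 0.57 ± 0.26 (adjusted p = 0.072), and was called without Day 10 replicate 3 (0.85, adjusted p = 0.012) or without Day 12 +Fgf replicate 3 (0.82, adjusted p = 0.018).

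Neurod2 (NM_010895, chr11:98325415-98329648, minus strand, 2 exons), a NeuroD factor known best from excitatory neurons of the cortex, was at 0, 0.334 and 0.0764 CPM at Day 10, 0 to 5 reads per library. It was at 0.761, 1.21 and 0.192 CPM in Day 12 +Fgf and at 4.59, 5.08 and 7.02 CPM in Day 12 +Wnt tissue. The Day 15 libraries held 0.516, 17.9 and 22.8 CPM in +Fgf and 27.2, 35.3 and 43.8 CPM in +Wnt tissue. Day 15 +Fgf replicate 1 held 7 reads of the gene and stood apart from the other 2 libraries of its group. Neurod2 rose by 3.98 ± 0.86 log2 units from Day 10 to Day 12 +Wnt (limma, adjusted p = 0.00083), and by another 2.61 ± 0.86 to Day 15 +Wnt (adjusted p = 0.013). The first of these sizes depends on the pseudocount, with 5.36 at 0.05 CPM and 2.52 at 1 CPM. The rise from Day 12 to Day 15 in +Fgf tissue was 2.98 ± 0.86 (adjusted p = 0.0074) although the groups overlapped, and it was 4.56 without Day 15 +Fgf replicate 1. In a fit of the 6 samples compared alone, that rise was not called (adjusted p = 0.051). Day 15 +Fgf was below Day 15 +Wnt tissue by 2.36 ± 0.86 (adjusted p = 0.023). Without Day 15 +Fgf replicate 1 that difference was -0.78 and was not called (adjusted p = 0.11), nor was it without Day 15 +Wnt replicate 2 (-2.35, adjusted p = 0.051) or replicate 3 (-2.19, adjusted p = 0.065).

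Neurod2 also depended on other choices of processing. With RNA integrity as a covariate the Day 15 difference was 0.12 (adjusted p = 0.96), so that its sign turned. The RNA integrity numbers the study lists were lower in all Day 15 +Fgf than in all Day 15 +Wnt libraries, and their part in the result was not tested beyond this covariate. At Day 12, +Fgf was below +Wnt tissue by 2.72 ± 0.86 (adjusted p = 0.014), a call that was lost without Day 12 +Fgf replicate 3 (-2.24, adjusted p = 0.065). Between Day 10 and Day 12 +Fgf the difference was 1.26 ± 0.86 (limma, adjusted p = 0.23), which passed the threshold without Day 15 +Fgf replicate 1, whose spread no longer entered the error (adjusted p = 0.0085).

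Olig2 (NM_016967, chr16:91225457-91228677, plus strand, 2 exons) is a bHLH factor of retinal progenitors near their last division, and is better known from oligodendrocytes and motor neurons. It was at 0.341, 0.201 and 0 CPM at Day 10, 0.254, 0.892 and 0.256 CPM in Day 12 +Fgf and 3.77, 1.11 and 1.85 CPM in Day 12 +Wnt tissue. On Day 15 Olig2 was at 23.5, 20.1 and 20.4 CPM in +Fgf and at 0.496, 1.86 and 0.912 CPM in +Wnt tissue. Every Day 15 +Fgf library held at least 288 reads of Olig2, while no other library held more than 60. Olig2 rose by 5.02 ± 0.44 log2 units from Day 12 to Day 15 in +Fgf tissue (limma, adjusted p = 7.6e-08), a size that was 5.59 with a pseudocount of 0.05 CPM and 3.95 with 1 CPM. In +Wnt tissue it rose by 2.48 ± 0.44 from Day 10 to Day 12 (limma, adjusted p = 0.00015), from 0 to 5 reads per library at Day 10. The size of that rise was 3.59 with a pseudocount of 0.05 CPM and 1.39 with 1 CPM. The next step of -0.88 ± 0.44 was not called (adjusted p = 0.086). Without Day 12 +Wnt replicate 2 this step was -1.25 (adjusted p = 0.028) and without Day 15 +Wnt replicate 2 it was -1.28 (adjusted p = 0.024). Olig2 was higher in +Fgf than in +Wnt tissue by 4.13 ± 0.44 at Day 15 (adjusted p = 3.4e-07) and lower by 1.77 ± 0.44 at Day 12 (adjusted p = 0.00305).

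Markers of the cell types that make Olig2 elsewhere were followed beside it. In Day 15 +Fgf tissue Sox10, a defining gene of the oligodendrocyte lineage, was at 0.0737, 0 and 3.04 CPM, and the myelin gene Mog was at 0.369, 0.137 and 0.0707 CPM. Other oligodendrocyte genes were higher there, with means of 50.3 CPM for Mbp and 10.4 CPM for Pdgfra. Of 5 genes of spinal motor neurons, Chat, Mnx1 and Slc18a3 held at most 3 reads in each Day 15 +Fgf library. Lhx3, the only 1 tested, was called higher in Day 15 +Fgf than in Day 12 +Fgf tissue (by 2.74 log2 units) and Day 15 +Wnt tissue (by 2.85), at a mean of 1.56 CPM. All 5 together summed to between 1.84 and 3.25 CPM in Day 15 +Fgf tissue. The 6 oligodendrocyte genes together summed to 25.3 to 27.9 CPM at Day 10, 30.2 to 35.1 CPM in Day 12 +Fgf, 37.4 to 45.4 CPM in Day 12 +Wnt, 64.8 to 69.8 CPM in Day 15 +Fgf and 75.1 to 82.5 CPM in Day 15 +Wnt tissue. Their sum thus rose in both media, and all 4 of them that were tested were higher in each Day 15 group than at Day 10. The part of such cells in the level of Olig2 was not tested.

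Bhlhe22 (NM_021560, chr3:18054174-18057517, plus strand, 1 exon), a relative of Olig2 that represses its targets and marks subsets of retinal interneurons and cortical neurons, rose in both media. It was at 5.04, 4.81 and 4.51 CPM at Day 10, 13.6, 13.1 and 15.8 CPM in Day 12 +Fgf and 12.4, 9.54 and 12.0 CPM in Day 12 +Wnt tissue. On Day 15 Bhlhe22 was at 59.1, 75.8 and 76.0 CPM in +Fgf and at 85.2, 103 and 92.4 CPM in +Wnt tissue. No group overlapped with another. Bhlhe22 rose at Day 12 by 1.51 ± 0.12 log2 units with Fgf (limma, adjusted p = 2.9e-08) and by 1.19 ± 0.12 with Wnt (adjusted p = 3.1e-07), and then by 2.29 ± 0.12 (adjusted p = 1.7e-10) and 3.02 ± 0.12 (adjusted p = 4.35e-12). The order of the media turned between the days, with +Fgf minus +Wnt at 0.32 ± 0.12 on Day 12 (adjusted p = 0.029) and -0.41 ± 0.12 on Day 15 (adjusted p = 0.0051). The Day 12 difference was not called without Day 12 +Fgf replicate 3 (0.24, adjusted p = 0.13), without Day 12 +Wnt replicate 2 (0.21, adjusted p = 0.17) or in edgeR's count test (adjusted p = 0.064). The Day 15 difference was not called with RNA integrity as a covariate (-0.24, adjusted p = 0.41).

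Hes6 (NM_019479, chr1:91411483-91414038, minus strand, 4 exons) is a Hes protein that opposes Hes1 and favours differentiation, and proneural factors raise it. Its level was 55.3, 41.4 and 55.1 CPM at Day 10, 82.6, 78.8 and 81.8 CPM in Day 12 +Fgf and 85.2, 82.5 and 83.1 CPM in Day 12 +Wnt tissue. By Day 15 Hes6 was at 345, 319.8 and 321 CPM in +Fgf and at 79.2, 81.4 and 81.7 CPM in +Wnt tissue. Day 12 libraries of both media and Day 15 +Wnt libraries thus lay within a narrow band, above Day 10 and far below Day 15 +Fgf. Hes6 rose at Day 12 by 0.69 ± 0.08 log2 units with Fgf (limma, adjusted p = 2.2e-06) and by 0.73 ± 0.08 with Wnt (adjusted p = 8.6e-07). From Day 12 to Day 15 it rose by 2.02 ± 0.08 in +Fgf tissue (adjusted p = 1.4e-11), while the step in +Wnt tissue was -0.05 ± 0.08 (adjusted p = 0.61) and was 0.03 when the library factors of the normalization were left out. The Day 15 means of 329 ± 14.4 and 80.8 ± 1.37 CPM gave a ratio of 4.07 (adjusted p = 1.6e-12).

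Insm1 (NM_016889, chr2:146221921-146225020, plus strand, 1 exon), a zinc finger repressor of progenitors that are about to form neurons, stood at 18.7, 17.1 and 26.1 CPM at Day 10, 29.5, 30.5 and 28.2 CPM in Day 12 +Fgf and 30.5, 26.9 and 34.3 CPM in Day 12 +Wnt tissue. At Day 15 it was at 124, 111 and 97.1 CPM in +Fgf and at 17.2, 23.3 and 18.5 CPM in +Wnt tissue. The Day 15 +Wnt libraries were back in the range of Day 10. Insm1 rose at Day 12 by 0.53 ± 0.14 log2 units with Fgf (limma, adjusted p = 0.0047) and by 0.58 ± 0.14 with Wnt (adjusted p = 0.0021). It then rose by 1.90 ± 0.14 in +Fgf tissue (adjusted p = 1.2e-08) and fell by 0.63 ± 0.14 in +Wnt tissue (adjusted p = 0.00083), so that the Day 15 means of 111 ± 13.5 and 19.7 ± 3.22 CPM gave a ratio of 5.61 (adjusted p = 1.5e-10). With RNA integrity as a covariate the rise to Day 12 +Fgf was 0.47 and was not called (adjusted p = 0.084). Insm1 is also known from neuroendocrine cells, and 7 genes of such cells summed to 3.96 to 5.10 CPM in Day 12 +Fgf, 62.2 to 71.2 CPM in Day 15 +Fgf and 43.8 to 56.1 CPM in Day 15 +Wnt tissue. The 2 that were tested, the granin genes Chga and Chgb, rose from Day 12 to Day 15 with Insm1 in +Fgf tissue (by 2.38 ± 0.21 and 4.78 ± 0.22 log2 units) and also rose in +Wnt tissue, where Insm1 fell. The hormone genes Ins1 and Ins2 and the factor Pax4 held at most 3 reads in each Day 15 library, and the part of such cells in the level of Insm1 was not tested.

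Gadd45g (NM_011817, chr13:51846678-51848468, plus strand, 4 exons), a growth arrest gene that proneural factors switch on as cells leave the cycle, was high with Wnt stimulation. It was at 6.95, 7.75 and 8.48 CPM at Day 10, 8.56, 9.05 and 6.32 CPM in Day 12 +Fgf and 20.3, 23.7 and 26.1 CPM in Day 12 +Wnt tissue. At Day 15 it was at 9.22, 10.6 and 14.7 CPM in +Fgf and at 32.0, 32.5 and 29.8 CPM in +Wnt tissue. All +Wnt libraries lay above all other libraries. Gadd45g rose by 1.56 ± 0.16 log2 units from Day 10 to Day 12 +Wnt (limma, adjusted p = 4.15e-07), and was lower in +Fgf than in +Wnt tissue by 1.53 ± 0.16 at Day 12 (adjusted p = 5.05e-07) and by 1.46 ± 0.16 at Day 15 (adjusted p = 4.3e-07). The step from Day 10 to Day 12 +Fgf was 0.03 ± 0.16 (adjusted p = 0.88), and its sign turned under 3 of the left-out libraries.

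The later steps of Gadd45g were small. From Day 12 to Day 15 it rose by 0.51 ± 0.16 in +Fgf tissue (limma, adjusted p = 0.012), a call lost without Day 12 +Fgf replicate 3 (0.35, adjusted p = 0.074), without Day 15 +Fgf replicate 3 (0.32, adjusted p = 0.083) and under quantile normalization (0.31, adjusted p = 0.094). In +Wnt tissue it rose by 0.43 ± 0.16 (adjusted p = 0.023), a call lost without Day 12 +Wnt replicate 1 (0.33, adjusted p = 0.11), Day 15 +Wnt replicate 1 (0.42, adjusted p = 0.057) or Day 15 +Wnt replicate 2 (0.41, adjusted p = 0.063).

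Which genes changed in the first 2 days was asked by setting each Day 12 group against Day 10. Without an unstimulated Day 12 group, time in culture and stimulation cannot be told apart in these comparisons. With Fgf, Neurog2, Bhlhe22, Hes6 and Insm1 rose and Neurog1 fell, 5 of 9 genes, where limma called 55.8% of all entries, 27.9% as higher and 27.9% as lower. The libraries of the 2 groups did not overlap for the same 5 genes, nor for 61.0% of all entries. With Wnt, all 9 rose, where limma called 60.2% of all entries, 30.7% as higher and 29.6% as lower, and none of the 9 overlapped, as for 64.3% of all entries. The median log2 difference of the 9 genes was 0.69 with Fgf and 1.56 with Wnt, while the median over all entries tested was -0.0021 and 0.0086. Both comparisons use the same Day 10 libraries. Without the library factors the split of calls over all entries with Wnt moved from 4244 higher and 4095 lower to 5166 higher and 3133 lower. The mean log2 library factors of Day 12 +Wnt and Day 10 differed by 0.086, which is less than the smallest of the 9 rises (0.58).

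The steps from Day 12 to Day 15 parted the media further. In +Fgf tissue all 9 genes rose, where limma called 57.0% of all entries, 27.1% as higher and 29.9% as lower, with a median of 2.29 against -0.019 over all entries. Neurod2 alone overlapped between the 2 days, and 63.7% of all entries did not. In +Wnt tissue Neurog2, Neurod2, Bhlhe22 and Gadd45g rose, Neurog1, Neurod4 and Insm1 fell, and Olig2 and Hes6 were not called, with 68.0% of all entries called, 32.5% as higher and 35.5% as lower. Olig2 alone overlapped between the 2 days, and 72.8% of all entries did not. Without Day 15 +Fgf replicate 1 the first count was again 9.

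Set against each other at Day 12, +Fgf tissue was lower for Neurog1, Neurod4, Neurod2, Olig2 and Gadd45g and higher for Bhlhe22, 6 of 9 genes with 51.5% of all entries called, 26.3% as higher and 25.2% as lower. The groups did not overlap for the same 6 genes, nor for 60.4% of all entries. At Day 15, +Fgf tissue was higher for Neurog2, Neurod4, Olig2, Hes6 and Insm1 and lower for Neurod2, Bhlhe22 and Gadd45g, 8 of 9 genes with 68.6% of all entries called, 38.0% higher and 30.6% lower. Without Day 15 +Fgf replicate 1 the count was 7, with Neurod2 no longer called. The 8 genes were also those whose groups of 3 libraries did not overlap, as for 73.1% of all entries.

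**Figure D2:**
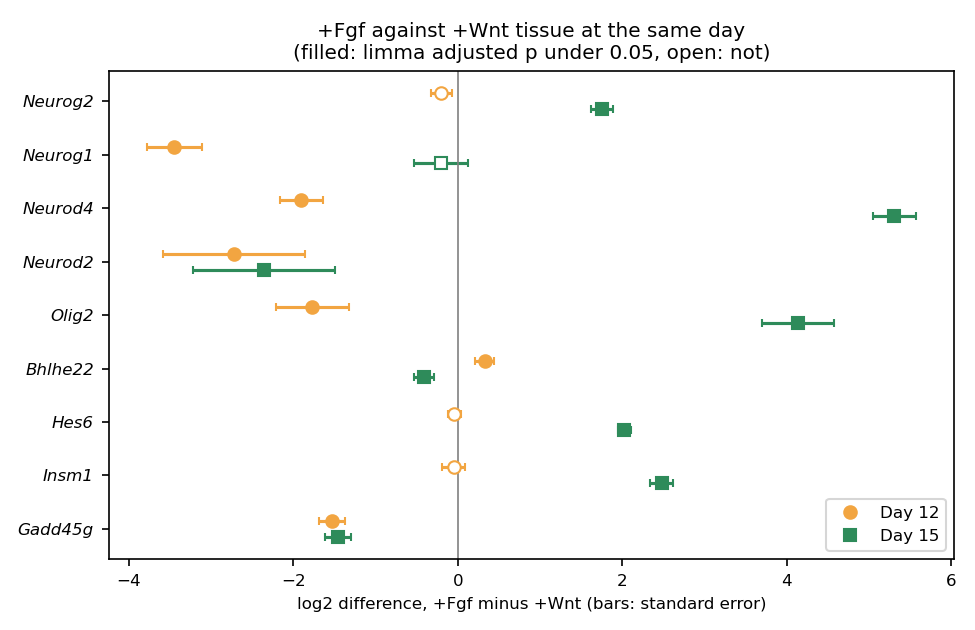
Log2 difference of each gene between +Fgf and +Wnt tissue of the same day (x axis, +Fgf minus +Wnt, bars show the standard error from limma), with circles for Day 12, squares for Day 15 and filled symbols for adjusted p under 0.05. Neurod4 and Olig2 lie left of 0 at Day 12 (-1.90 and -1.77) and right of 0 at Day 15 (5.30 and 4.13), while Gadd45g stays at the left on both days.

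Whether the change from Day 12 to Day 15 differed between the media was tested as a contrast of the 2 changes. It did for 7 of the 9 genes, with 47.7% of all entries called, 26.9% as higher and 20.8% as lower. The change was greater with Fgf for Neurod4 (by 7.21 ± 0.37 log2 units), Olig2 (by 5.91 ± 0.62), Neurog1 (by 3.25 ± 0.47), Insm1 (by 2.53 ± 0.20), Hes6 (by 2.06 ± 0.11) and Neurog2 (by 1.95 ± 0.19), and smaller for Bhlhe22 (-0.74 ± 0.17). It was 0.07 ± 0.22 for Gadd45g (limma, adjusted p = 0.81), and 0.37 ± 1.22 for Neurod2 (adjusted p = 0.82). Without Day 15 +Fgf replicate 1 the value of Neurod2 was 1.95 and passed the threshold (adjusted p = 0.0092), which made 8 genes. The call of Bhlhe22 was lost with RNA integrity as a covariate (-0.54, adjusted p = 0.15).

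Against the starting tissue, Day 15 +Fgf tissue was higher for all of the genes except Neurog1, 8 of 9, where limma called 72.6% of all entries, 36.2% as higher and 36.4% as lower. The same 8 did not overlap with Day 10, nor did 73.8% of all entries. Under quantile normalization the call of Gadd45g was lost (from 0.54 to 0.18, limma adjusted p = 0.29). The largest mean ratio was that of Neurod4, at 169-fold over a Day 10 level of 7 to 15 reads per library, and Neurog2 was 19.5-fold higher. Day 15 +Wnt tissue was higher than Day 10 for 7 of 9 genes, where 79.8% of all entries were called, 39.5% as higher and 40.2% as lower. The same 7 did not overlap with Day 10, nor did 80.6% of all entries. The 2 others, Neurog1 and Insm1, differed from Day 10 by -0.05 ± 0.33 (limma, adjusted p = 0.90) and -0.05 ± 0.14 (adjusted p = 0.74). Both signs turned without the library factors, whose mean log2 values differed by 0.17 between these groups. Under quantile normalization Neurog1 was called lower than Day 10 in Day 15 +Wnt tissue (-0.91, limma adjusted p = 0.011) and in Day 15 +Fgf tissue (-0.70, adjusted p = 0.049). Olig2 was higher by 1.59 ± 0.44 (adjusted p = 0.0033), not called under quantile normalization (0.73, adjusted p = 0.13) or with RNA integrity as a covariate (1.30, adjusted p = 0.060).

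Between genes, levels were compared per kilobase of transcript. On this scale of mean CPM per kilobase Hes6 was the highest of the 9 in each group, from 37.9 ± 5.98 at Day 10 to 246 ± 10.8 in Day 15 +Fgf tissue (SD, n = 3). In Day 15 +Fgf tissue Neurog2 came next at 89.2 ± 3.46, then Neurod4 at 37.5 ± 3.03 and Insm1 at 35.7 ± 4.34, which were within each other's spread. Bhlhe22 followed at 21.0 ± 2.89, Gadd45g at 10.8 ± 2.66 and Olig2 at 8.42 ± 0.760, with Neurod2 at 4.37 ± 3.72 and Neurog1 at 2.17 ± 0.772 lowest. In Day 15 +Wnt tissue the order below Hes6 (60.5 ± 1.03) was Gadd45g at 29.4 ± 1.34, Bhlhe22 at 27.9 ± 2.63 and Neurog2 at 26.6 ± 3.39, levels that lay within each other's spread. Neurod2 followed there at 11.3 ± 2.64, and Neurod4 at 0.884 ± 0.169 and Olig2 at 0.431 ± 0.277 were lowest.

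Other proneural bHLH genes also moved in both directions. Of 12 such genes 9 were tested at Day 15, 5 were higher in +Fgf and 3 in +Wnt tissue, with a median log2 difference of 1.75 beside 0.051 for all entries. Atoh7, the factor that makes retinal progenitors competent to form ganglion cells, had a mean of 102 CPM in Day 15 +Fgf and was at 0.062, 0 and 0.140 CPM in Day 15 +Wnt tissue. Neurod1 was higher by 2.68 ± 0.16 in Day 15 +Fgf tissue (limma, adjusted p = 3.3e-10), Bhlhe23 by 2.00 ± 0.29 (adjusted p = 1.3e-05), and Ptf1a, a factor of horizontal and amacrine cells, had a mean of 6.72 CPM there and at most 3 reads in each Day 15 +Wnt library.

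The partners and inhibitors of proneural proteins differed by at most 1.14 log2 units among those called. Of the 3 E proteins, Tcf3 was higher in Day 15 +Fgf than in Day 15 +Wnt tissue by 0.47 ± 0.04 log2 units (limma, adjusted p = 5.8e-09) and Tcf12 by 0.40 ± 0.05 (adjusted p = 1.6e-06), while Tcf4 was lower by 0.63 ± 0.07 (adjusted p = 9.7e-07). Of the 4 Id genes, whose products take E proteins away from proneural factors, 3 were higher in Day 15 +Fgf tissue, namely Id1 by 1.14 ± 0.11, Id3 by 1.06 ± 0.09 and Id2 by 0.11 ± 0.04, and none was lower, with a median of 0.59.

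Notch signalling sets which cells keep a proneural factor. Of 8 ligand and fringe genes, 5 were higher and 3 lower in Day 15 +Fgf than in Day 15 +Wnt tissue, with a median of 0.86. Dll4, a ligand of newborn retinal neurons, was at 55.7, 48.1 and 51.4 CPM in Day 15 +Fgf and at 1.55, 1.57 and 1.68 CPM in Day 15 +Wnt tissue. The log2 difference was 1.58 ± 0.17 for Mfng, 1.47 ± 0.20 for Dll3 and 1.06 ± 0.08 for Lfng. Of 5 Hes and Hey repressors 3 were higher and 1 lower, with a median of 0.66. Hes1 was higher by 2.04 ± 0.09 (limma, adjusted p = 8.0e-12), Hes5 by 2.12 ± 0.12 (adjusted p = 1.1e-10) and Hey1 by 0.49 ± 0.10 (adjusted p = 0.00028), while Hey2 was lower by 1.04 ± 0.14 (adjusted p = 4.3e-06).

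The list of 19 genes that act with or after neurogenins in cell cycle exit held 14 that were higher and 3 that were lower in Day 15 +Fgf tissue, with a median of 0.86. Foxn4, a factor of early retinal progenitors, had a mean of 109 CPM there and at most 3 reads in each Day 15 +Wnt library. Gadd45a, a relative of Gadd45g, was at 179.7, 164 and 149 CPM in Day 15 +Fgf and at 8.44, 8.95 and 8.49 CPM in Day 15 +Wnt tissue, an order opposite to that of Gadd45g. Insm2, the relative of Insm1, was higher by 2.53 ± 0.19 (limma, adjusted p = 3.8e-09), and Ebf2 was lower by 3.12 ± 0.36 (adjusted p = 8.4e-07).

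**Figure D3:**
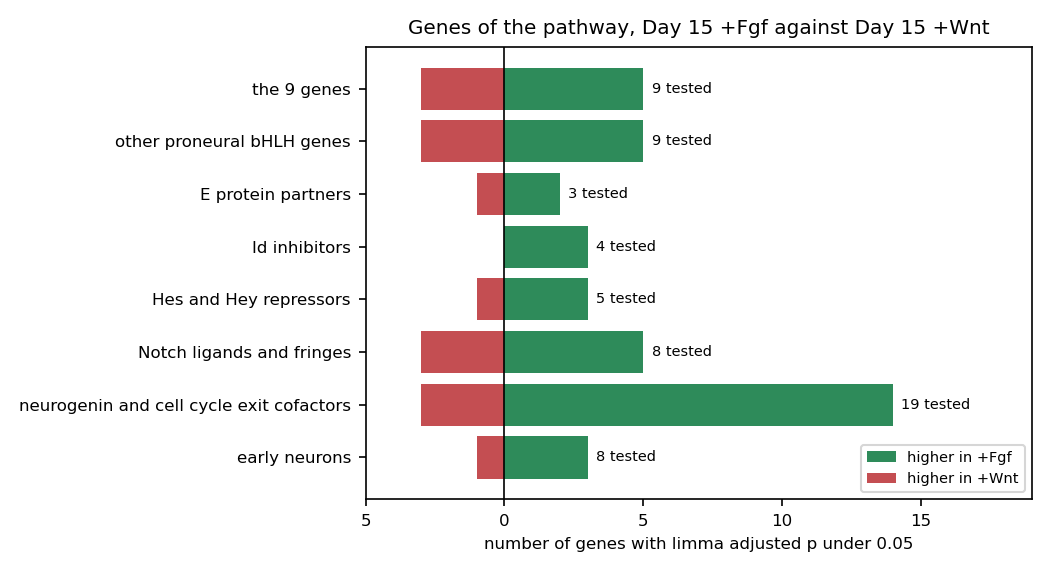
Number of genes of each list (x axis) that were higher in Day 15 +Fgf tissue (bars to the right) or in Day 15 +Wnt tissue (bars to the left) with limma adjusted p under 0.05, with the number tested beside each bar. The list of neurogenin and cell cycle exit cofactors has 14 genes to the right and 3 to the left. Over all entries tested, 38.0% were higher and 30.6% lower in Day 15 +Fgf tissue.

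Genes of early neurons were present in both media. Of 8 such genes all rose from Day 12 to Day 15 in each medium, and the median rise was 2.70 log2 units with Fgf and 1.28 with Wnt. At Day 12 all 8 were lower in +Fgf than in +Wnt tissue, with a median of -1.28. Neurog1, Neurod4, Neurod2, Olig2 and Gadd45g had the same direction on that day. Bhlhe22 had the opposite direction, and Neurog2, Hes6 and Insm1 were not called. At Day 15, 3 were higher and 1 lower in +Fgf tissue, with a median of 0.22, and the change from Day 12 to Day 15 was greater with Fgf for all 8. The neuronal tubulin gene Tubb3 stood at 714, 671 and 661 CPM in Day 15 +Fgf and at 544, 628 and 552 CPM in Day 15 +Wnt tissue, a difference that was not called (0.25 ± 0.16, limma, adjusted p = 0.19). Elavl4 was higher in Day 15 +Fgf tissue by 1.13 ± 0.14 and Dcx lower by 0.97 ± 0.25.

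The defining genes of retina and pigment epithelium followed the labels. The 7 genes of neural retina progenitors summed to 2301 to 2379 CPM in Day 15 +Fgf and 593 to 633 CPM in Day 15 +Wnt tissue, and all 7 were higher in +Fgf tissue. The 7 genes of pigment epithelium summed to 219 to 283 CPM in Day 15 +Fgf and 4982 to 6476 CPM in Day 15 +Wnt tissue, where Rpe65 held at most 3 reads per library. All 5 pigment epithelium genes tested were lower in +Fgf tissue.

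Retinal neurons were marked in +Fgf tissue, where Neurog2, Neurod4, Olig2, Hes6 and Insm1 were high. Of 6 ganglion cell genes 5 were higher in Day 15 +Fgf tissue and none lower, with sums of 469.6 to 565 against 81.7 to 87.5 CPM. Of 6 photoreceptor precursor genes tested, 5 were higher and Otx2 was lower by 1.05 ± 0.09 (limma, adjusted p = 2.3e-08), at means of 109 against 226 CPM. All 7 listed genes, Otx2 among them, summed to 299 to 342 against 242 to 275 CPM. This sum did not set Day 15 +Fgf tissue apart. It was 328 to 336 CPM in Day 12 +Wnt tissue, 94.0 to 122 CPM in Day 12 +Fgf tissue and 244 to 276 CPM at Day 10. The part of these cells in the levels of the 9 genes was not tested.

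Genes of cortical neurons were followed beside Neurod2, with values that are shown by library in the plot of Neurod2 and cortical neuron genes. From Day 12 to Day 15, where Neurod2 rose in both media, 2 of 7 cortical genes rose, 1 fell and 4 were not called in each medium. The 7 genes summed to 146 to 193 CPM at Day 10, where Neurod2 held at most 5 reads. They summed to 89.7, 163 and 201 CPM in Day 15 +Fgf and to 424, 501 and 468 CPM in Day 15 +Wnt tissue, and 4 of them were lower in +Fgf tissue, 1 was higher and 2 were not called, with a median of -1.84. Tbr1, a factor of deep layer and newborn cortical neurons, was at 0.885, 26.2 and 41.2 CPM in Day 15 +Fgf and at 176, 216 and 174 CPM in Day 15 +Wnt tissue. Emx1 was at 0, 7.69 and 11.6 CPM and Emx2 at 0.811, 8.52 and 19.5 CPM in Day 15 +Fgf tissue, and Eomes was at 4.35, 25.1 and 24.8 CPM. In these 4 genes, the ones that were lower, Day 15 +Fgf replicate 1 was the lowest library of its group, as it was for Neurod2. At Day 12 +Fgf, replicate 2 had the highest values of Neurod2, Neurog1, Olig2, Neurod4 and Tbr1 (17.8 CPM, beside 7.42 and 2.87 CPM in replicates 1 and 3). It was also the highest for Neurog2, Insm1 and Gadd45g, and the lowest for Bhlhe22 and Hes6. The part of cortical cells in the level of Neurod2 was not tested.

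**Figure D4:**
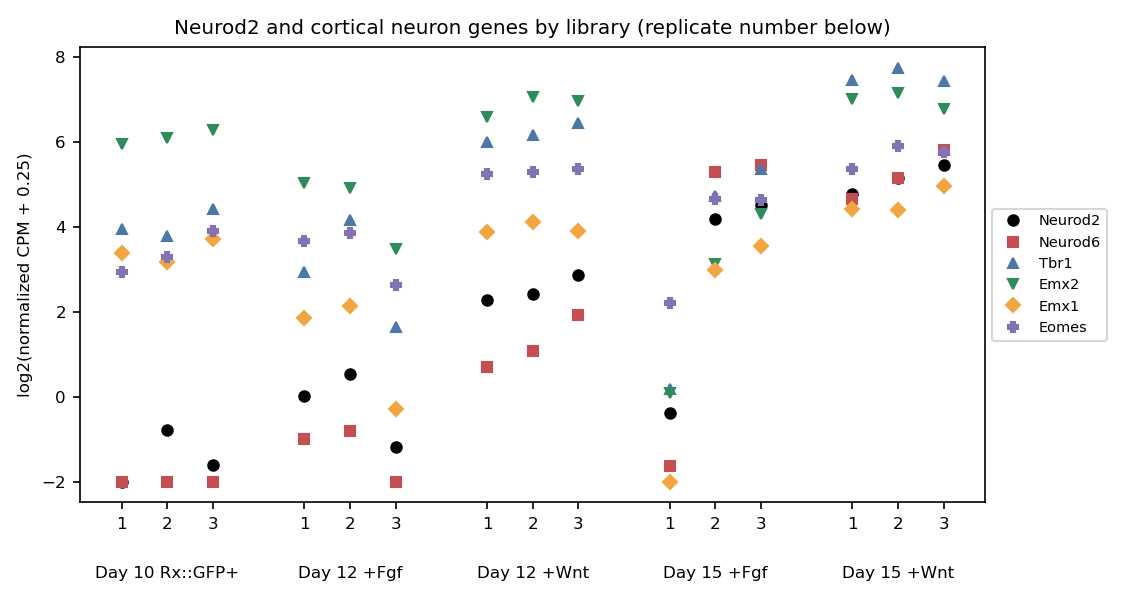
Neurod2 and 5 cortical neuron genes in each of the 15 libraries (y axis, log2 of normalized CPM + 0.25), with the replicate number and group on the x axis. In Day 15 +Fgf replicate 1 Neurod2 is at 0.516 CPM and Neurod6 at 0.0737 CPM, far below replicates 2 and 3 of that group.

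The 9 factors also act outside the eye and cortex. Of the 6 genes of neural crest and sensory ganglia, where Neurog1 is best known, 5 were tested and 3 were higher in Day 15 +Fgf tissue (Eya2, for example, by 3.40 ± 0.10 log2 units), although Neurog1 was not called in that comparison. Of 4 oligodendrocyte genes tested, 1 was higher (Mbp by 0.88 ± 0.10) and 1 lower (Pdgfra by 2.16 ± 0.26). Of 2 neuroendocrine genes tested, Chgb was higher by 0.93 ± 0.22 and Chga lower by 0.67 ± 0.21, and of the 5 motor neuron genes 1 was tested and was higher (Lhx3, 1.56 CPM on average in Day 15 +Fgf tissue and listed at 0 in Day 15 +Wnt tissue).

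The genes whose pattern was most like each of the 9 were found by Pearson's r of log2 values over the 15 libraries, among 11033 candidates with at least 10 CPM in a group. The points share the 5 groups, so r describes the pattern of group levels above all. Neurod6, another NeuroD factor of the cortex, was most like Neurod2 (r = 0.973), at 0.0737, 39.1 and 44.0 CPM in Day 15 +Fgf and 24.9, 35.6 and 56.0 CPM in Day 15 +Wnt tissue, followed by D430041D05Rik (r = 0.957). Myt1, a zinc finger gene of newborn neurons, was most like Neurog2 (r = 0.984), and rose to 101, 95.1 and 89.2 CPM in Day 15 +Fgf tissue, followed by Actr1a (r = 0.983). Fezf2, a forebrain factor, was most like Neurog1 (r = 0.919), with 94.4, 84.4 and 77.3 CPM in Day 12 +Wnt and 17.9, 18.2 and 9.97 CPM in Day 12 +Fgf tissue, followed by Acvr2a (r = 0.911).

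For Neurod4 the most alike were Nrcam (r = 0.974) and Pgbd5 (r = 0.973), and for Olig2 they were Nrcam (r = 0.968) and Hes5 (r = 0.947), which stood at 176, 148 and 167 CPM in Day 15 +Fgf and 35.3, 38.3 and 38.7 CPM in Day 15 +Wnt tissue. For Hes6 they were Pomc (r = 0.983) and Btg2 (r = 0.978), an antiproliferative gene of progenitors in their last division that reached 283, 267 and 261 CPM in Day 15 +Fgf tissue. For Insm1 they were Rnf144b (r = 0.978) and Gstm7 (r = 0.968). For Bhlhe22 they were Kif3c (r = 0.990) and Thsd7b (r = 0.989). For Gadd45g they were Cdk20 (r = 0.980) and Draxin (r = 0.979), an axon guidance gene that was at 93.1, 94.9 and 84.0 CPM in Day 15 +Wnt and 33.8, 38.8 and 39.9 CPM in Day 15 +Fgf tissue.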

How the data were processed

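RNA-Seq libraries of 15 samples were used, 3 biological replicates in each of 5 groups, as the labels give them. Reads were aligned to mm10 by the authors using TopHat2 2.0.8b, who counted fragments per gene with Cuffdiff (Cufflinks 2.1.1 is named in the submitters' processing notes) and normalized them with edgeR 3.2.4. The deposited values are a normalized signal, in CPM after TMM scaling: all non-zero values (100%, within 0.01 of a whole number) were whole multiples of 1 read, and columns summed to between 936418 and 1075448. The strand setting of the counting is not given in the sources used here, and no exon of the 9 genes overlapped another gene.

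Log2(value + 0.25 CPM) was fitted with limma 3.58.1 in R 4.3.3 to 5 group means, moderated with a trend, two-sided, with Benjamini-Hochberg adjustment over the 13845 entries tested in each of 9 comparisons. Members, gene lists and tests were chosen with earlier results of these data known. The text names all 9 genes, the 2 genes most like each, and up to 4 called genes per list with the largest Day 15 difference. Lists covered other proneural bHLH genes, E proteins, Id, Hes and Hey, Notch ligands and fringes, cofactors, and markers of early neurons, retina, pigment epithelium, ganglion cells, photoreceptors, cortex, oligodendrocytes, motor neurons, neural crest and neuroendocrine cells. Genes named beside these (Tubb3, Mog, Sox10, Chat, Mnx1, Slc18a3, Ins1, Ins2, Pax4, Rpe65) were picked from the lists after their values were seen, and some list genes are not reported here. The floor was 3 reads per library. The alternatives were other pseudocounts, filters, normalizations and moderation, RNA integrity as a covariate, a replicate block, fewer samples, edgeR 4.0.16 on recovered reads and leaving out each library. The procedure was tested on simulated counts. Positions are from GENCODE M21 (GRCm38, also called mm10) and windows before gene starts from RefSeq GRCm38.p6. Python 3.11.15, pandas 2.3.3 and matplotlib 3.10.9 were used.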

Additional observations from a re-analysis of the deposited data

Results flagged for a closer look

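The change from Day 12 to Day 15 differed between Fgf and Wnt stimulation for 7 of the 9 genes by a limma test of the difference itself. The difference, +Fgf minus +Wnt, was 7.21 log2 units for Neurod4, 5.91 for Olig2, 3.25 for Neurog1, 2.53 for Insm1, 2.06 for Hes6, 1.95 for Neurog2 and -0.74 for Bhlhe22. For Neurod4, Neurog1 and Insm1 the 2 changes were called in opposite directions, a rise with Fgf (6.46, 2.00 and 1.90) and a fall with Wnt (-0.74, -1.24 and -0.63), and the fall of Neurod4 was not called without Day 12 +Wnt replicate 3 (-0.66) or Day 15 +Wnt replicate 1 (-0.64). For Bhlhe22 both changes were rises, 2.29 with Fgf and 3.02 with Wnt. The call of Bhlhe22 was lost with RNA integrity as a covariate (-0.54, adjusted p = 0.15 by limma).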

How the results depend on the processing

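Of 81 tests of the 9 genes (66 called), 27 alternatives were computed. Counts of called genes among the 9 stayed within 1.5 times throughout. Among called tests 1747 values kept direction and call, 28 kept direction only and 1 turned, Neurod2 at Day 15 +Fgf against +Wnt with RNA integrity as a covariate (0.12). Tests not called passed the threshold with the same direction in 10 values, and turned sign in 28. With RNA integrity the sign turned for Neurod2 (-0.39) and Gadd45g (-0.27) at Day 12 +Fgf against Day 10, and Neurog1 at Day 15 +Fgf against +Wnt (0.64) and against Day 10 (0.12). Under quantile normalization it turned for Gadd45g at Day 12 +Fgf against Day 10 (-0.13), Hes6 from Day 12 to Day 15 +Wnt (0.046), Neurog1 at Day 15 +Fgf against +Wnt (0.21) and the contrast of changes of Gadd45g (-0.10). Plain CPM turned Hes6 from Day 12 to Day 15 +Wnt (0.033) and Neurog1 (0.11) and Insm1 (0.11) at Day 15 +Wnt against Day 10, the count test turned Hes6 (0.0050) and Neurog1 (0.014) in the same comparisons, and a pseudocount of 1 CPM turned the contrast of Neurod2 (-0.066). Leaving out 1 library gave ranges of -0.064 to 0.19 for Gadd45g at Day 12 +Fgf against Day 10, -0.19 to 0.15 for Neurog1 and -0.18 to 0.13 for Insm1 at Day 15 +Wnt against Day 10, -0.14 to 0.037 for Insm1 at Day 12 +Fgf against +Wnt, and -0.51 to 1.95 for Neurod2 and -0.11 to 0.22 for Gadd45g in the contrast of changes. With RNA integrity as a covariate the calls over all entries went from 7893 to 3579 for Day 12 to Day 15 +Fgf and from 6609 to 3829 for the contrast of changes. The RNA integrity numbers the study lists were lower in all Day 15 +Fgf than in all Day 12 +Fgf libraries. This covariate and that step thus cannot be cleanly told apart. The cause of the lost calls was not tested.

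Same-numbered samples showed little shared deviation (7 of 30 pairs with r over 0.1, range -0.26 to 0.24, median -0.0065). These values cannot settle whether the numbers pair the samples. With the replicate number as a block, 7 genes were called in the contrast of changes, as without it, calls over all entries there went from 6609 to 6530, and no call among the 9 genes changed. Precision is limited by 3 replicates and by at most 31 reads per library for Neurod2, Olig2 and Neurod4 at Day 10 and in Day 12 +Fgf tissue and for Neurog1 in Day 12 +Fgf tissue.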
